A study of Mus musculus with 22 samples.

Results

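Pancreatic CD11c+CD8α- DCs of pre-diabetic NOD mice were compared at steady state with those of non-diabetic C57BL/6 mice, and the genes described here are those outside the study's own table of genes that differed at steady state. The members were taken from the sample labels as all arrays with the steady-state treatment, which gave 3 NOD and 4 C57BL/6 arrays, 7 of the 22 arrays of the series. The NOD mice were NOD/ShiLtJ females and the C57BL/6 mice C57BL/6J females, both 5 weeks old and untreated, and each array holds the RNA of a separate pool of 10 pancreases. Cells were enriched with CD45 beads, then sorted as CD11c+CD8α- events on a flow cytometer and lysed without culture. The other 15 arrays hold DCs of both strains cultured for 18 h with PBS or LPS (4 NOD and 4 C57BL/6 pools with PBS, 4 NOD and 3 C57BL/6 pools with LPS). They serve here only to show where a steady-state difference was also measured in cultured cells. According to the methods, each sort was split between direct lysis and culture, so pools may be shared between them.

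DCs take up antigen in a tissue, carry it to the draining lymph nodes and present it there to T cells. In the pancreas they surround the islets of Langerhans, and in the NOD mouse they are among the first leukocytes to gather there, before T cells destroy the insulin-producing β cells. What a DC senses and takes up is set by its C-type lectins, scavenger receptors and inhibitory receptors, its identity by transcription factors, and its activation state goes along with shifts in glycolysis, lipid handling and matrix-degrading enzymes.

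All values are log2 expression values normalized by RMA, so a difference of 1 is a 2-fold difference, and each difference is NOD minus C57BL/6. The medians of the 7 arrays lay between 7.63 and 7.68 and their lower quartiles between 6.03 and 6.19. The mean correlation of an array with the others of its strain was 0.9908 to 0.9939 in NOD and 0.9931 to 0.9952 in C57BL/6. Values under the lower quartiles were not tested against background, so a fold change that rests on one is uncertain in size. Each gene was read from the brightest of the probe sets assigned to no other gene, and it counts as called where limma gave an adjusted p (Benjamini-Hochberg) below 0.1. Means carry their SD (n = 3 NOD pools and n = 4 C57BL/6 pools). Where not all probe sets of a gene were called in its direction, or where their mean gave a much smaller difference, the number called and the difference of the mean over the gene's probe sets are added. Of 18193 genes, 1204 were called higher (6.62%) and 1606 lower (8.83%) in NOD, 15.4% in all, and the median difference over all genes was 0.0224. At least 2-fold differences were called for 487 genes (2.68%), and for 4422 genes (24.3%) the arrays of the strains did not overlap. In these sorted populations fewer cells of a type and less RNA per cell cannot be told apart. The sequences of the probes were not analysed here, so a difference in RNA cannot be told apart from a strain difference in the sequence under a probe.

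The DC markers were measured in both strains, with a mean level per array of 11.1 in NOD and 11.3 in C57BL/6. The 10 macrophage and monocyte markers lay higher, at 13.3 to 13.4 in both strains. The share of macrophages in the sorted cells was not tested. Itgax, which encodes CD11c, was at 10.83, 10.94 and 10.91 in NOD pools, against 11.27, 11.33, 11.39 and 11.29 in C57BL/6 pools, so every NOD pool lay below every C57BL/6 pool (difference -0.43, SE 0.089, adjusted p = 0.0114). Of 15 DC markers 4 were lower and 0 higher in NOD, with 2 lower without NOD replicate 4, and Ciita, the activator of MHC class II genes, averaged 10.12 in NOD and 10.64 in C57BL/6 (adjusted p = 0.00648). Zbtb46, Sirpa, Cd74 and the MHC class II genes H2-Aa, H2-Ab1 and H2-Eb1 did not pass. Cd8a, the excluded lineage marker, averaged 7.78 in NOD and 7.56 in C57BL/6 (adjusted p = 0.353). Of 11 NK and innate lymphoid cell markers, 9 were lower and 0 higher in NOD, and their mean level per array was 8.57 to 8.84 in NOD and 9.48 to 9.79 in C57BL/6. Among 7 markers of plasmacytoid DCs, 3 were higher and 1 lower (mean level 10.3 to 10.4 in NOD and 9.94 to 10.1 in C57BL/6). Of 9 fibroblast markers 3 were lower and 0 higher (7.86 to 8.16 in NOD and 8.14 to 8.49 in C57BL/6), 2 without NOD replicate 4, NOD replicate 6, C57BL/6 replicate 5 or C57BL/6 replicate 6. Of 8 acinar enzyme genes none passed (lowest adjusted p = 0.195, for Cpb1), and their mean level was 12.7 to 13.8 in NOD and 13.2 to 13.7 in C57BL/6. Of 7 B cell markers 0 were higher and 1 lower (2 without NOD replicate 6 or with the replicate block), at 8.6 to 9.56 in NOD and 8.93 to 9.41 in C57BL/6. Of 7 endothelial markers none passed (2 were higher with the replicate block), at 6.9 to 7.03 in NOD and 6.67 to 6.94 in C57BL/6. Of 7 T cell markers 2 were higher and 1 lower, with 2 called without NOD replicate 1 or 6 or C57BL/6 replicate 4, 5 or 6. Of 7 neutrophil markers 2 were higher and 2 lower (2 called without NOD replicate 1), and of 6 mast cell and basophil markers 0 were higher and 1 lower (2 without C57BL/6 replicate 4). Of 9 islet and duct markers 3 were higher and 0 lower, with 1 called without NOD replicate 1 or 4 or C57BL/6 replicate 1 or 5 and 2 without C57BL/6 replicate 4.

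The largest rises were those of Zfp979, Fbp1, the transcript BC018473, Hal, Ctrc and Htr1b, each by more than 3 on the log2 scale. Zfp979, a zinc finger gene, was at 10.34, 9.69 and 10.14 in NOD pools, against 4.47, 4.25, 4.13 and 4.44 in C57BL/6 pools (difference 5.74, SE 0.15, adjusted p = 1.49e-08). Fbp1, which encodes the gluconeogenic enzyme fructose-1,6-bisphosphatase, was at 10.32, 9.72 and 9.91 in NOD pools, against 5.5, 5.42, 5.0 and 6.35 in C57BL/6 pools (difference 4.42, SE 0.27, adjusted p = 2.43e-06). The C57BL/6 values of both genes lay mostly below the lower quartiles of the arrays. Hal, which encodes the enzyme that begins histidine breakdown, reached 12.17, 11.79 and 11.92 in NOD pools, against 8.53, 7.59, 8.17 and 8.37 in C57BL/6 pools, a 13.9-fold difference (difference 3.8, SE 0.2, adjusted p = 8.07e-07). Htr1b, the serotonin receptor 1B, was at 11.06, 11.42 and 11.14 in NOD pools, against 7.69, 7.86, 7.68 and 7.63 in C57BL/6 pools (difference 3.49, SE 0.11, adjusted p = 3.13e-08). In these 4 genes the lowest NOD pool stood well above the highest C57BL/6 pool, and a lack of overlap was required by the choice of genes.

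Slc16a14, a member of the monocarboxylate transporter family, was at 10.63, 10.71 and 10.3 in NOD pools, against 7.5, 7.75, 7.49 and 7.67 in C57BL/6 pools (difference 2.94, SE 0.12, adjusted p = 1.95e-07). Atp6v0e2, a subunit of the proton pump that acidifies endosomes and lysosomes, averaged 8.54 ± 0.13 in NOD and 5.6 ± 0.1 in C57BL/6 pools (difference 2.95, SE 0.1, adjusted p = 5.02e-08). Mxra8, an adhesion protein of the immunoglobulin superfamily, averaged 11.03 ± 0.24 in NOD and 7.78 ± 0.16 in C57BL/6 pools (difference 3.25, SE 0.13, adjusted p = 1.71e-07). Tafa5, which encodes a small secreted protein related to chemokines, was higher by 3.14 and Tmem98, a membrane protein, by 2.85, and the unnamed transcripts BC018473 and AI506816 by 4.07 and 3.38 (adjusted p = 5.76e-08, 5.2e-06, 3.13e-08 and 5.02e-08). The C57BL/6 means of Atp6v0e2, Tafa5 and AI506816, at 5.6, 5.85 and 5.18, lay under the lower quartiles. Ctrc encodes chymotrypsin C, a digestive enzyme of acinar cells. It was at 13.07, 12.12 and 11.66 in NOD pools, against 8.48, 8.3, 8.73 and 8.48 in C57BL/6 pools (difference 3.79, SE 0.26, adjusted p = 7.24e-06), whereas none of the 8 acinar enzyme genes used as markers passed the test, and Ctrb1, which encodes the related chymotrypsinogen B, averaged 14.09 ± 0.34 in NOD and 14.06 ± 0.15 in C57BL/6 pools (adjusted p = 0.934).

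**Figure D1:**
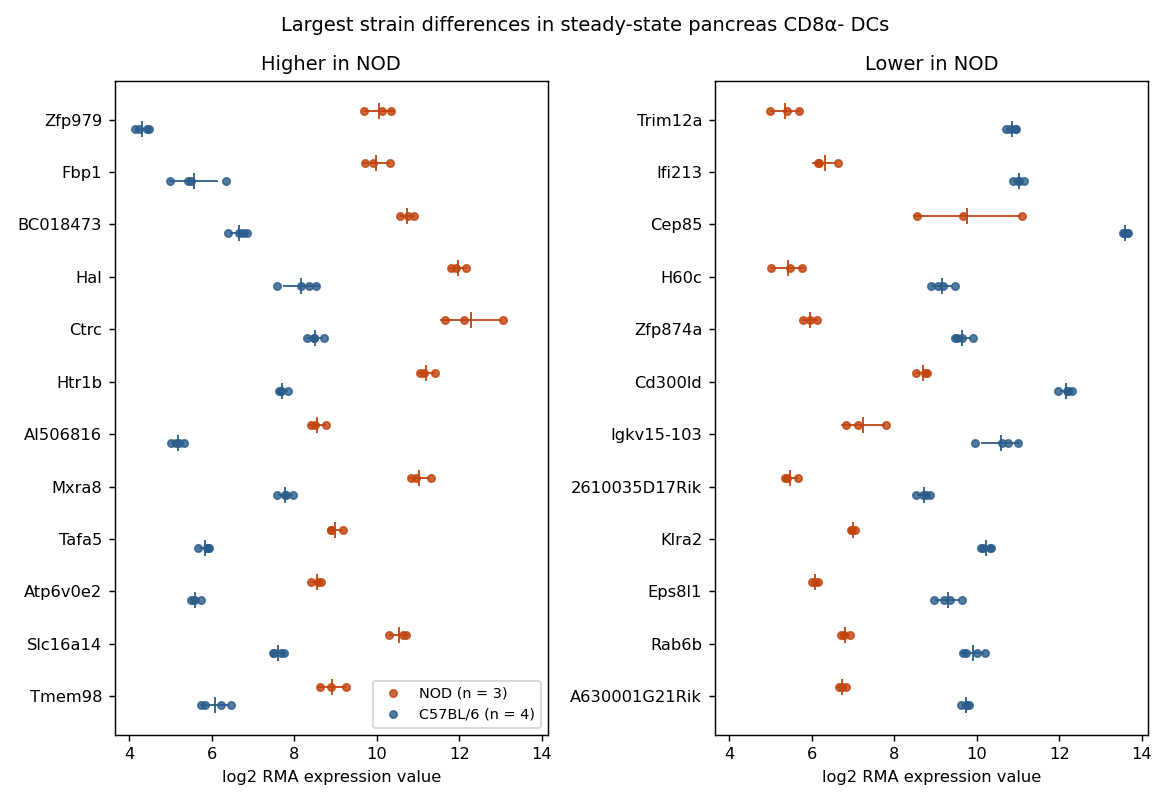
Log2 expression values (horizontal axes) of the 12 largest rises and the 12 largest falls with 1 point per pool, NOD pools drawn above C57BL/6 pools, a tick at the mean and a line of 1 SD to each side. No NOD pool overlapped a C57BL/6 pool for any of the 24 genes, which the choice of genes required, and the spread was widest for Cep85 in NOD, at 8.55 to 11.1.

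The largest falls included Trim12a, Cep85, H60c and Zfp874a. Trim12a, a member of the TRIM family with antiviral relatives, was at 4.99, 5.39 and 5.7 in NOD pools, against 10.96, 10.71, 10.8 and 10.93 in C57BL/6 pools (difference -5.49, SE 0.15, adjusted p = 1.49e-08, 2 of 2 probe sets called, mean over them -3.33), so the NOD pools sat below the lower quartiles. Ifi213, the fall next in size, is drawn in the plots but not described, since its probe sets appear to stand in the study's table under the related symbol Ifi204. H60c, a ligand of the NK cell receptor NKG2D, was at 5.48, 5.02 and 5.76 in NOD pools, against 9.18, 9.47, 9.06 and 8.89 in C57BL/6 pools (difference -3.73, SE 0.18, adjusted p = 4.9e-07). Its NOD pools also sat below the lower quartiles. Trim12a and H60c were low in all 3 NOD pools and high in all 4 C57BL/6 pools, where a lack of overlap was required by the choice of genes.

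Cd300ld, an activating receptor of the CD300 family on myeloid cells, was at 8.53, 8.74 and 8.8 in NOD pools, against 12.2, 12.31, 11.98 and 12.21 in C57BL/6 pools (difference -3.49, SE 0.11, adjusted p = 3.13e-08). Rab6b, a GTPase of Golgi traffic, was at 6.79, 6.71 and 6.92 in NOD pools, against 10.0, 9.73, 9.66 and 10.2 in C57BL/6 pools, and all 4 of its probe sets were called lower (difference -3.09, SE 0.14, adjusted p = 2.65e-07). Eps8l1, an actin regulator, averaged 6.07 ± 0.076 in NOD and 9.3 ± 0.28 in C57BL/6 pools (difference -3.23, SE 0.14, adjusted p = 2.93e-07). Cep85, a centrosome protein, was at 9.66, 8.55 and 11.1 in NOD pools, against 13.57, 13.67, 13.54 and 13.64 in C57BL/6 pools, with the widest spread of the set among NOD pools (difference -3.83, SE 0.44, adjusted p = 0.000238, 2 of 2 probe sets called, mean over them -2.17). Zfp874a, the long noncoding 2610035D17Rik and A630001G21Rik fell by 3.67, 3.24 and 3.0 on the log2 scale (adjusted p = 5.02e-08, 5.66e-08 and 3.13e-08). For 2610035D17Rik 1 of 2 probe sets was called, and the mean over them was -1.56. The NOD means of Zfp874a and 2610035D17Rik, at 5.96 and 5.47, lay under the lower quartiles.

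The same genes were examined in cultured DCs, where the strains were compared anew within PBS and within LPS. Of 18193 genes 10.9% were called between the strains with PBS and 10.9% with LPS. Some differences were called in every condition. Trim12a differed by -5.48 with PBS and -5.9 with LPS (adjusted p = 6.25e-09 and 4.32e-07), and its steady-state minus its PBS difference was -0.0067 (adjusted p = 0.995). Zfp979 differed by 6.67 with PBS and 6.18 with LPS (adjusted p = 5.97e-11 and 3.41e-09), and its steady-state minus its PBS difference was -0.93 (adjusted p = 0.00719). Hal differed by 4.13 with PBS and 2.79 with LPS (adjusted p = 7.75e-06 and 9.37e-05). Other differences were small after culture, where both strains gave low values. Fbp1 averaged 9.98 in NOD and 5.57 in C57BL/6 at steady state, but differed by only 0.081 with PBS and 0.03 with LPS (adjusted p = 0.817 and 0.961). Its means were 4.38 in NOD and 4.3 in C57BL/6 with PBS, and 4.58 and 4.55 with LPS, all under the lower quartiles of the steady-state arrays. The steady-state difference was larger than the PBS difference by 4.33 (adjusted p = 1.96e-07). Rab6b, Tafa5, Slc16a14 and Tmem98 also changed, with differences of -3.09, 3.14, 2.94 and 2.85 at steady state and of -0.34, 0.41, 0.26 and 0.37 with PBS, none of which passed except that of Tmem98 (adjusted p = 0.225, 0.172, 0.377 and 0.0525). With PBS these genes averaged 6.51, 6.37, 6.26 and 6.29 in NOD and 6.85, 5.96, 5.99 and 5.93 in C57BL/6. All of these means lay below 7.65, the median of the steady-state values, so signal was low in both strains. The test of the change in the strain difference passed for each (adjusted p = 3.38e-07, 2.75e-07, 2.5e-07 and 1.87e-06). Over all genes the strain difference changed between steady state and PBS culture for 1446 genes (7.95%).

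**Figure D2:**
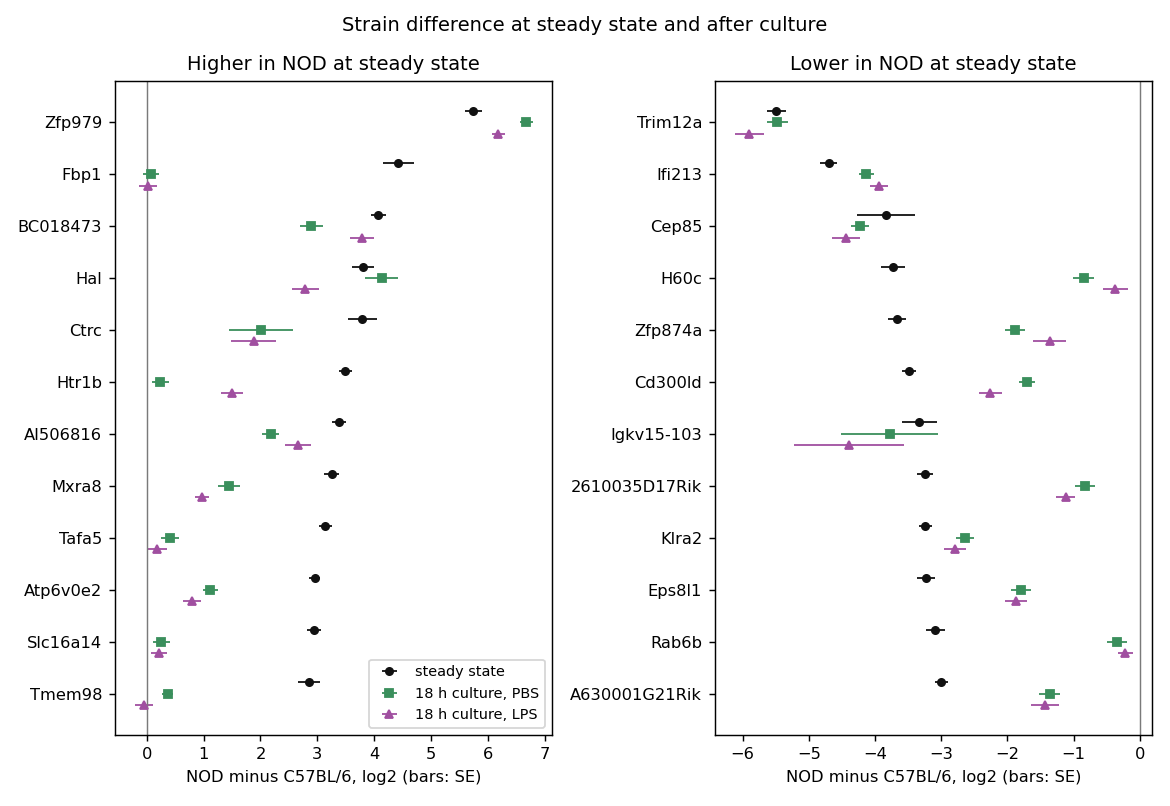
Strain difference (NOD minus C57BL/6, log2, horizontal axes) with its SE for the 24 genes of the largest rises and falls at steady state (circles), after 18 h with PBS (squares) and after 18 h with LPS (triangles). Trim12a and Zfp979 keep differences of more than 5 in all conditions, whereas Fbp1, Slc16a14 and Rab6b lie near 0 after culture.

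Genes of metabolism, transcription, lectins, surface receptors and matrix were then grouped in 26 lists. Gstp1, Slc7a7, Spib, Zbtb16, Clec7a, Gpr84 and Ffar4, given below by their differences alone, were picked after their values were seen. So was Ciita, given above among the DC markers by its means. Of 625 measured metabolism genes 67 were higher and 60 lower in NOD (20.3%, against 15.4% of all genes). Of 481 transcription factors 38 were higher and 63 lower (21.0%), of 56 lectins 7 were higher and 9 lower (28.6%), of 456 surface receptors and channels 42 were higher and 65 lower (23.5%), and of 223 matrix genes 19 were higher and 22 lower (18.4%). Without NOD replicate 6, 63 transcription factors and 10 lectins were called. The median differences of the 5 groups lay between -0.0331 and 0.0663. Calls were concentrated among brighter probe sets, with 4651 called when those under the median level were left out, against 6769 over all. The lists differ in level: collagens averaged 6.91 to 7.0 in NOD arrays and glycolysis genes 10.4 to 10.7, with the median of all values at 7.65. Their shares were not compared with genes of like brightness, so an excess over 15.4% is not read as a trait of a group.

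**Figure D3:**
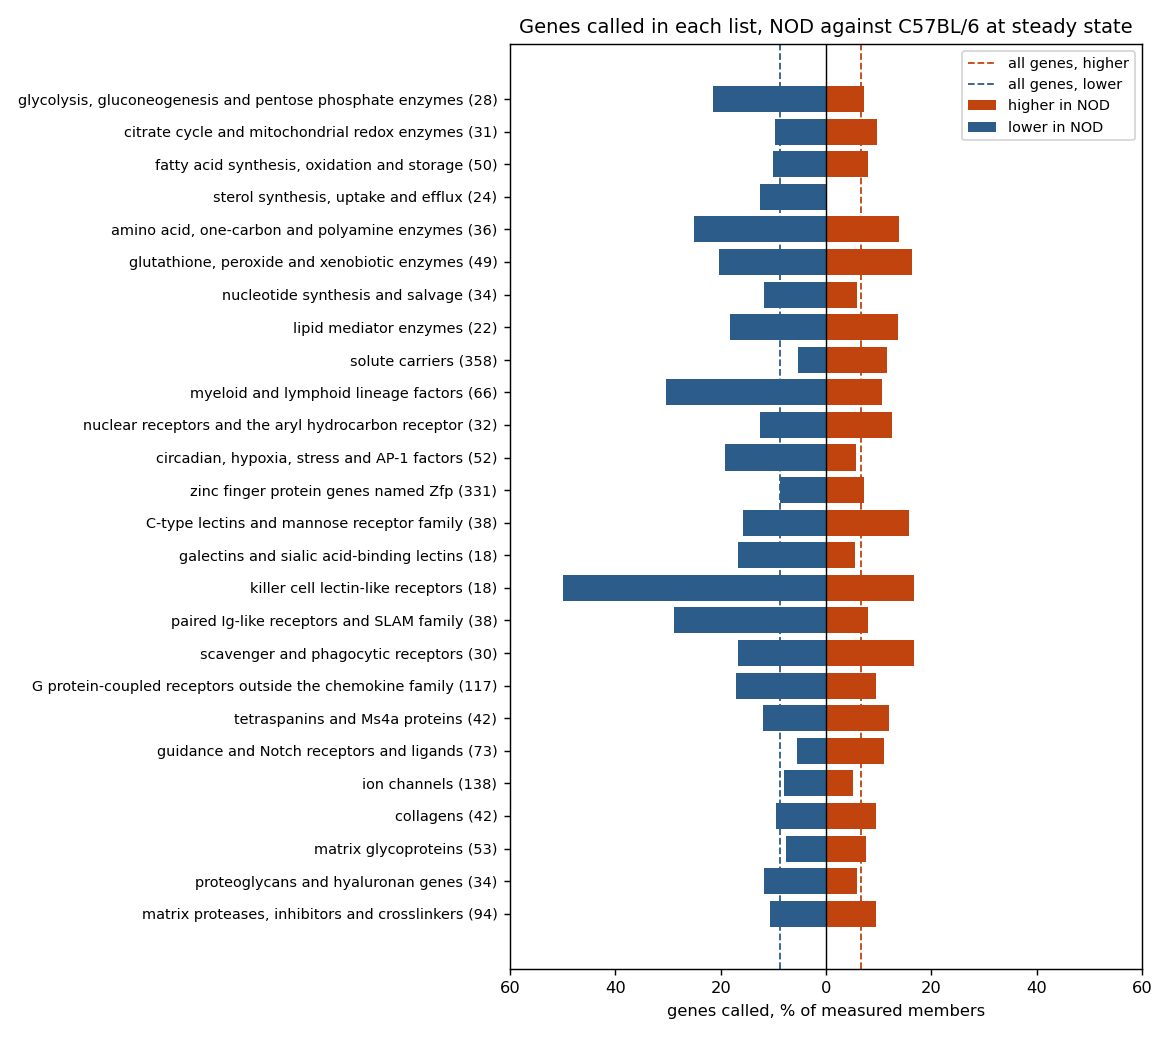
Percent of the measured members of each list (number of members in brackets) called higher in NOD, to the right, and lower in NOD, to the left, with dashed lines at the share of all genes called higher (6.62%) and lower (8.83%). Killer cell lectin-like receptors have the largest share of lower genes, at 50%, followed by the lineage transcription factors at 30.3%.

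Among called genes of glycolysis and its neighbouring pathways, counted together, the falls outnumbered the rises in NOD DCs. Of 28 genes of glycolysis, gluconeogenesis and the pentose phosphate pathway 6 were lower and 2 higher (28.6%, median difference -0.12). Pfkp, an isoform of phosphofructokinase, the enzyme that commits glucose to glycolysis, was at 10.68, 10.24 and 10.51 in NOD pools, against 11.45, 11.36, 11.47 and 11.56 in C57BL/6 pools (difference -0.98, SE 0.12, adjusted p = 0.000328, 2 of 3 probe sets called, mean over them -0.65). Pfkfb3, which makes the activator of that step, averaged 9.69 ± 0.13 in NOD and 10.4 ± 0.11 in C57BL/6 pools (difference -0.71, SE 0.1, adjusted p = 0.00137, 1 of 2 probe sets called, mean over them -0.36). Pck2, the mitochondrial enzyme that makes phosphoenolpyruvate, averaged 9.6 ± 0.22 in NOD and 10.42 ± 0.15 in C57BL/6 pools (difference -0.82, SE 0.13, adjusted p = 0.00208). Fbp1 acts in the opposite direction to phosphofructokinase. The count was 12 without NOD replicate 1 (11 lower and 1 higher). It was 5 without NOD replicate 6 or C57BL/6 replicate 4 (4 lower and 1 higher in each case).

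Of 31 genes of the citrate cycle and mitochondrial redox enzymes 3 were higher and 3 lower in NOD (19.4%, against 15.4% of all genes). Pdk1, the kinase that shuts pyruvate out of the mitochondrial cycle, was at 8.71, 8.45 and 8.57 in NOD pools, against 9.99, 10.13, 10.17 and 10.36 in C57BL/6 pools, a 3-fold difference (difference -1.59, SE 0.11, adjusted p = 8.97e-06, 3 of 4 probe sets called, mean over them -1.28). Suclg2, a subunit of succinyl-CoA ligase, was at 8.75, 8.4 and 8.52 in NOD pools, against 9.89, 9.78, 9.79 and 10.15 in C57BL/6 pools (difference -1.34, SE 0.12, adjusted p = 5.78e-05). In culture Suclg2 differed by -1.71 with PBS and -1.16 with LPS (adjusted p = 1.83e-06 and 0.00741), so it was lower in NOD in all 3 conditions. Nnt encodes the mitochondrial transhydrogenase, for which C57BL/6J mice are known to carry a deletion. It was at 13.07, 12.99 and 13.11 in NOD pools, against 12.3, 12.34, 12.32 and 12.46 in C57BL/6 pools (difference 0.7, SE 0.091, adjusted p = 0.000625, 2 of 3 probe sets called, mean over them 0.59). The list count was 4 without NOD replicate 6 or without any one of the C57BL/6 replicates.

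Of 50 genes of fatty acid metabolism 4 were higher and 5 lower (18.0%, against 15.4% of all genes). The count fell to between 3 and 6 when NOD replicate 4, NOD replicate 6 or any one of the C57BL/6 replicates was left out. With the replicate block 2 were higher and 10 lower. Fads2, a desaturase of polyunsaturated fatty acids, averaged 8.41 ± 0.22 in NOD and 7.83 ± 0.13 in C57BL/6 pools (difference 0.58, SE 0.12, adjusted p = 0.012, 1 of 3 probe sets called, mean over them 0.28 with adjusted p = 0.0987), and Acot7, a thioesterase of acyl-CoA, averaged 9.4 ± 0.054 in NOD and 9.82 ± 0.13 in C57BL/6 pools (difference -0.43, SE 0.1, adjusted p = 0.0215). Of 24 sterol genes 3 were lower and 0 higher (12.5%), 5 lower without NOD replicate 1. Apoc2, an apolipoprotein that activates lipoprotein lipase, was at 8.21, 8.16 and 8.16 in NOD pools, against 10.53, 10.08, 10.52 and 10.21 in C57BL/6 pools (difference -2.16, SE 0.13, adjusted p = 1.85e-06). Ch25h, which makes 25-hydroxycholesterol, an oxysterol of innate immunity, was at 7.48, 7.38 and 7.25 in NOD pools, against 8.3, 8.73, 8.42 and 9.47 in C57BL/6 pools (difference -1.36, SE 0.23, adjusted p = 0.00355). Abcg1, an exporter of cholesterol, averaged 10.13 ± 0.14 in NOD and 10.66 ± 0.12 in C57BL/6 pools (difference -0.53, SE 0.11, adjusted p = 0.00969). All 3 sterol genes were lower in every NOD pool than in any C57BL/6 pool. Of the 24 sterol genes 5 had no overlap between strains, against 24.3% of all genes. Apoe, which encodes the apolipoprotein of cholesterol transport in macrophages, averaged 14.16 ± 0.097 in NOD and 13.98 ± 0.2 in C57BL/6 pools (adjusted p = 0.394).

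Amino acid and one-carbon genes held one of the larger shares of calls, with 9 of 36 lower and 5 higher in NOD (38.9%). Enzymes of serine synthesis and of the folate cycle were among the lower genes. Shmt1, the cytosolic serine hydroxymethyltransferase, was at 8.75, 8.75 and 8.88 in NOD pools, against 10.24, 10.05, 10.03 and 10.03 in C57BL/6 pools (difference -1.29, SE 0.097, adjusted p = 1.27e-05, 2 of 4 probe sets called, mean over them -0.38). Mthfd2, its mitochondrial partner in the folate cycle, averaged 9.61 ± 0.054 in NOD and 10.19 ± 0.13 in C57BL/6 pools (difference -0.58, SE 0.1, adjusted p = 0.00398), and Phgdh, which begins serine synthesis, averaged 8.47 ± 0.3 in NOD and 9.16 ± 0.23 in C57BL/6 pools (difference -0.69, SE 0.16, adjusted p = 0.0192, 2 of 4 probe sets called, mean over them -0.88). Arg1, the arginase of alternatively activated myeloid cells, was at 6.75, 6.43 and 6.76 in NOD pools, against 7.63, 7.29, 7.73 and 7.61 in C57BL/6 pools (difference -0.92, SE 0.13, adjusted p = 0.00113). Aldh18a1, of proline synthesis, was lower by all 5 of its probe sets, at 8.54 ± 0.34 in NOD and 9.29 ± 0.27 in C57BL/6 pools (difference -0.75, SE 0.18, adjusted p = 0.0237). Gpt2, the mitochondrial alanine aminotransferase, went the other way, at 10.69 ± 0.31 in NOD and 9.81 ± 0.32 in C57BL/6 pools (difference 0.88, SE 0.18, adjusted p = 0.0118), with a call for all 4 probe sets.

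Genes of glutathione and detoxification were called in both directions. Of 49, 8 were higher and 10 lower (36.7%). Gpx3, the secreted glutathione peroxidase, was at 12.93, 13.19 and 12.76 in NOD pools, against 10.82, 10.51, 10.36 and 10.37 in C57BL/6 pools, a 5.45-fold difference (difference 2.45, SE 0.14, adjusted p = 1.85e-06). Glutathione transferases moved both ways. Gstm1 averaged 11.75 ± 0.3 in NOD and 10.92 ± 0.35 in C57BL/6 pools (difference 0.83, SE 0.2, adjusted p = 0.0204, 3 of 4 probe sets called, mean over them 0.55), Gstm5 averaged 9.26 ± 0.068 in NOD and 8.6 ± 0.17 in C57BL/6 pools (difference 0.66, SE 0.11, adjusted p = 0.00305) and Gsta4 averaged 7.92 ± 0.098 in NOD and 7.05 ± 0.33 in C57BL/6 pools (difference 0.87, SE 0.16, adjusted p = 0.00548), whereas Gstp1 fell by 0.46 (adjusted p = 0.00975). Cyp1b1, a monooxygenase induced through the aryl hydrocarbon receptor, was at 5.79, 5.38 and 6.42 in NOD pools, against 7.21, 6.85, 7.42 and 7.91 in C57BL/6 pools (difference -1.48, SE 0.27, adjusted p = 0.00466, 1 of 3 probe sets called, mean over them -0.49), and the NOD mean lay under the lower quartiles. Ahr itself, of which strains carry different alleles, averaged 10.22 ± 0.2 in NOD and 10.22 ± 0.19 in C57BL/6 pools (adjusted p = 0.988).

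Of 34 nucleotide genes 2 were higher and 4 lower (17.6%, close to the 15.4% of all genes, median difference -0.0461). Among the called purine salvage and DNA precursor genes were 1 large rise and several falls. Ada, the adenosine deaminase that removes extracellular and cytosolic adenosine, was at 11.4, 11.4 and 11.26 in NOD pools, against 9.41, 9.15, 9.24 and 9.34 in C57BL/6 pools (difference 2.07, SE 0.1, adjusted p = 4.9e-07). Ada differed by 1.61 with PBS and -0.076 with LPS (adjusted p = 0.00131 and 0.925). Rrm1, a subunit of ribonucleotide reductase, was at 9.98, 9.9 and 9.93 in NOD pools, against 11.1, 10.91, 10.98 and 11.22 in C57BL/6 pools (difference -1.12, SE 0.1, adjusted p = 5.12e-05, 2 of 3 probe sets called, mean over them -0.51). Dck and Tk1 are kinases that salvage nucleosides for DNA. Dck averaged 9.56 ± 0.31 in NOD and 10.64 ± 0.14 in C57BL/6 pools (difference -1.07, SE 0.15, adjusted p = 0.000797) and Tk1 averaged 8.02 ± 0.074 in NOD and 8.86 ± 0.078 in C57BL/6 pools (difference -0.84, SE 0.093, adjusted p = 0.000201). Pnp, the enzyme next to Ada in purine breakdown, averaged 11.04 ± 0.26 in NOD and 11.87 ± 0.13 in C57BL/6 pools (difference -0.82, SE 0.13, adjusted p = 0.00243). All 4 lower genes had no overlap between strains, which held for 10 of the 34 nucleotide genes and for 24.3% of all genes.

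Lipid mediator enzymes had 3 of 22 higher and 4 lower (31.8%), with 4 called without NOD replicate 6 or C57BL/6 replicate 5. Platelet-activating factor is made by Lpcat2 and cleaved by Pla2g7. Lpcat2 was at 11.08, 10.83 and 11.05 in NOD pools, against 11.95, 11.98, 11.74 and 12.11 in C57BL/6 pools (difference -0.96, SE 0.11, adjusted p = 0.000319, 1 of 2 probe sets called, mean over them -0.33 with adjusted p = 0.0702) and Pla2g7 at 12.56, 12.64 and 12.5 in NOD pools, against 11.95, 11.92, 11.89 and 11.78 in C57BL/6 pools (difference 0.68, SE 0.092, adjusted p = 0.000832), so on these probe sets the synthetic gene was lower and the degrading gene higher in all NOD pools. Hpgd, which inactivates prostaglandins, averaged 12.11 ± 0.16 in NOD and 12.92 ± 0.04 in C57BL/6 pools (difference -0.81, SE 0.1, adjusted p = 0.000415). Alox5ap, needed for leukotriene synthesis, averaged 13.53 ± 0.045 in NOD and 13.55 ± 0.047 in C57BL/6 pools (adjusted p = 0.892).

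Of 358 solute carriers 41 were higher and 19 lower in NOD (16.8%). Without NOD replicate 6 the counts were 23 higher and 13 lower. Amino acid transporters were found among both. Slc7a2, a carrier of arginine and other cationic amino acids, was at 6.95, 6.04 and 6.71 in NOD pools, against 9.21, 8.73, 8.91 and 9.07 in C57BL/6 pools, and all 4 of its probe sets were called lower (difference -2.41, SE 0.2, adjusted p = 2.28e-05). It was the reverse in culture, where Slc7a2 differed by 1.52 with PBS and 1.17 with LPS (adjusted p = 0.000202 and 0.00141), and the change in the strain difference was -3.93 (adjusted p = 1.12e-07). Slc1a5, a glutamine carrier, was at 8.59, 8.39 and 8.47 in NOD pools, against 9.85, 9.68, 9.82 and 9.93 in C57BL/6 pools (difference -1.33, SE 0.1, adjusted p = 1.23e-05, 1 of 2 probe sets called, mean over them -0.76). Slc7a7, which exchanges cationic against neutral amino acids, was higher by 1.11 (adjusted p = 0.000133). Slc13a3, a carrier of dicarboxylates such as succinate, averaged 9.91 ± 0.19 in NOD and 11.46 ± 0.19 in C57BL/6 pools (difference -1.55, SE 0.13, adjusted p = 2.84e-05, 2 of 4 probe sets called, mean over them -0.89) and differed by -3.77 with PBS and -4.17 with LPS (adjusted p = 6.46e-05 and 2.89e-05), larger than at steady state (change 2.23, adjusted p = 0.00507). Slc15a2, a carrier of small peptides, averaged 11.49 ± 0.37 in NOD and 10.27 ± 0.27 in C57BL/6 pools (difference 1.22, SE 0.19, adjusted p = 0.00173, 2 of 3 probe sets called, mean over them 0.62), and the other probe set was called lower. Slc24a3, an exchanger of sodium, calcium and potassium, averaged 7.58 ± 0.39 in NOD and 6.08 ± 0.25 in C57BL/6 pools (difference 1.5, SE 0.19, adjusted p = 0.000424).

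Transcription factors of lineage and activation were lower in NOD more often than higher. Of 66 lineage factors 20 were lower and 7 higher (40.9%, median difference -0.22), with 15 called without NOD replicate 4 and 18 without NOD replicate 6 or C57BL/6 replicate 6. Tbx21 and Eomes, the T-box factors of NK cells and cytotoxic T cells, were both lower. Tbx21 was at 6.7, 6.85 and 6.96 in NOD pools, against 8.28, 8.09, 8.16 and 8.26 in C57BL/6 pools (difference -1.36, SE 0.1, adjusted p = 1.21e-05) and Eomes at 6.8, 7.43 and 7.18 in NOD pools, against 7.97, 7.7, 7.92 and 8.43 in C57BL/6 pools (difference -0.87, SE 0.18, adjusted p = 0.0123). Of 11 NK and innate lymphoid markers 9 were lower, with a mean level of 8.57 to 8.84 in NOD and 9.48 to 9.79 in C57BL/6, Eomes itself being one of the 9, and their part in these 2 differences was not tested. Prdm1, which encodes Blimp-1, a repressor linked to tolerance in DCs, was at 8.18, 7.86 and 7.98 in NOD pools, against 9.14, 8.94, 8.83 and 9.23 in C57BL/6 pools (difference -1.03, SE 0.12, adjusted p = 0.000369). The immediate-early factor Nr4a1 averaged 8.98 ± 0.51 in NOD and 10.06 ± 0.28 in C57BL/6 pools (difference -1.08, SE 0.22, adjusted p = 0.00993). On the higher side Spib, a factor of plasmacytoid DCs and B cells, rose by 0.71 (adjusted p = 0.00191) and Zbtb16, the factor PLZF of innate-like lymphocytes, by 0.75 (adjusted p = 0.000769). The plasmacytoid DC markers lay at 10.3 to 10.4 in NOD and 9.94 to 10.1 in C57BL/6, and their part in the rise of Spib was not tested. Maf, a factor of macrophages and T cells, averaged 13.53 ± 0.087 in NOD and 13.47 ± 0.047 in C57BL/6 pools (adjusted p = 0.749).

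Nuclear receptors had 4 of 32 higher and 4 lower (25.0%), with 4 called without NOD replicate 4 and 5 without NOD replicate 6, C57BL/6 replicate 1 or C57BL/6 replicate 4. With the replicate block 7 were higher and 5 lower. Pparg, a lipid-sensing receptor of macrophages and DCs, was at 8.78, 8.85 and 8.81 in NOD pools, against 9.3, 9.4, 9.31 and 9.63 in C57BL/6 pools (difference -0.6, SE 0.11, adjusted p = 0.00436). Pparg also differed in culture, by -0.76 with PBS and -0.81 with LPS (adjusted p = 0.0198 and 0.0128). Rarb, a retinoic acid receptor that is itself a target of retinoic acid, averaged 6.3 ± 0.21 in NOD and 7.05 ± 0.23 in C57BL/6 pools (difference -0.75, SE 0.15, adjusted p = 0.00735), and Nr3c2, the mineralocorticoid receptor, averaged 7.4 ± 0.056 in NOD and 7.02 ± 0.037 in C57BL/6 pools (difference 0.38, SE 0.088, adjusted p = 0.0184).

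Among 52 circadian, hypoxia and stress factors 10 were lower and 3 higher in NOD (25.0%). The circadian clock genes are given in full and were singled out after their values were seen. Nr1d1, described with them, was counted with the nuclear receptors above. The molecular clock is a loop in which CLOCK and its partner encoded by Arntl drive the Per and Cry genes through E-boxes, PER and CRY proteins repress that pair, and the D-box factors Dbp, Tef and Hlf and the repressor Nr1d1 form output and stabilising loops. Sequences before the start sites of 4 called clock genes are printed to show whether the letters of these elements stand there. They run from 250 bases before to 50 after the start, in RefSeq on GRCm38.p6, and capitals mark matches on either strand to the E-box CACGTG or the D-box TTATGTAA. Per1 lies at chr11:69098699-69098998 (plus strand), Cry1 at chr10:85185005-85185304 (minus strand), Per3 at chr4:151044616-151044915 (minus strand) and Tef at chr15:81802423-81802722 (plus strand).
Per1: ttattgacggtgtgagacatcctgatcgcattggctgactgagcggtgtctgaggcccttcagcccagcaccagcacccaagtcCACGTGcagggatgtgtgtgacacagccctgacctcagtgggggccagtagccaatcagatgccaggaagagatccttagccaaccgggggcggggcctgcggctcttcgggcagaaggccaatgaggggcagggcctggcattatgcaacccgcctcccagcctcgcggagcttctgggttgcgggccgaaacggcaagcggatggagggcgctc
Cry1: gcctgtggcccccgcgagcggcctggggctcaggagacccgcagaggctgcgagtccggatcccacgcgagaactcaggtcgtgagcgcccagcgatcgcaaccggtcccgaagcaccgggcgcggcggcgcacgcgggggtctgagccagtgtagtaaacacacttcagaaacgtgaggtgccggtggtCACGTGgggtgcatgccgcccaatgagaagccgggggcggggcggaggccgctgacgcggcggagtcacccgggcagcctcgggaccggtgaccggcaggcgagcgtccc
Per3: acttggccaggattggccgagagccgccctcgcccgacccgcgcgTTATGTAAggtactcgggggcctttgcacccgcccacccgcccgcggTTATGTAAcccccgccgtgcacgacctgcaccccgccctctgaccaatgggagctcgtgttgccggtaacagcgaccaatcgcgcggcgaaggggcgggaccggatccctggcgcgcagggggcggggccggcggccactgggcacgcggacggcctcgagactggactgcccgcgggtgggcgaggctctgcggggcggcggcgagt
Tef: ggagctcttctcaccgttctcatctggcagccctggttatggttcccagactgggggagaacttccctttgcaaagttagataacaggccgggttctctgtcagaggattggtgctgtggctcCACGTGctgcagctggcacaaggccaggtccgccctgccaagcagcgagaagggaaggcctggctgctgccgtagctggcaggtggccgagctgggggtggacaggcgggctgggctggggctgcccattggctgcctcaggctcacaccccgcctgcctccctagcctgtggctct
An E-box was present in the windows of Per1, Cry1 and Tef and 2 D-boxes in that of Per3, and no match of one motif overlapped one of the other. Of 32851 promoters of the same length 7.15% held the E-box and 0.938% the D-box. The windows of Nr1d1 and Dbp and a second start site of Per1 held neither, a second start site of Tef held 1 E-box, and Per2 and Bhlhe40 were not analysed here.

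The clock genes were not lower as a block. Per1, the period gene that also answers to glucocorticoids and cAMP, was at 10.78, 11.13 and 11.32 in NOD pools, against 9.96, 10.18, 10.18 and 9.89 in C57BL/6 pools, higher in each NOD pool (difference 1.02, SE 0.14, adjusted p = 0.000806). Per2 was at 7.29, 6.82 and 6.76 in NOD pools, against 8.36, 7.73, 7.88 and 8.24 in C57BL/6 pools, lower in each NOD pool (difference -1.1, SE 0.18, adjusted p = 0.00236, 1 of 3 probe sets called, mean over them -0.5). Per3 was at 8.3, 7.49 and 7.91 in NOD pools, against 8.85, 8.71, 8.87 and 8.98 in C57BL/6 pools (difference -0.95, SE 0.17, adjusted p = 0.004, 4 of 6 probe sets called, mean over them -0.47). Cry1, the repressor that works with the PER proteins, was at 7.77, 7.16 and 7.4 in NOD pools, against 8.67, 8.39, 8.51 and 8.91 in C57BL/6 pools (difference -1.17, SE 0.16, adjusted p = 0.000875). The 3 period genes therefore did not move one way between the strains.

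Genes of the output and stabilising loops also moved in both directions. Nr1d1, the heme-binding repressor REV-ERBα, was at 8.27, 8.17 and 8.79 in NOD pools, against 7.79, 7.66, 7.83 and 7.51 in C57BL/6 pools (difference 0.71, SE 0.15, adjusted p = 0.0124). Bhlhe40, a repressor induced by the E-box pair, was at 10.23, 9.95 and 10.41 in NOD pools, against 11.03, 10.94, 11.06 and 11.33 in C57BL/6 pools (difference -0.9, SE 0.13, adjusted p = 0.00146). Of the D-box factors, Tef averaged 9.08 ± 0.12 in NOD and 9.68 ± 0.2 in C57BL/6 pools (difference -0.6, SE 0.12, adjusted p = 0.0103, 2 of 3 probe sets called, mean over them -0.42) and Dbp averaged 9.51 ± 0.1 in NOD and 10.03 ± 0.13 in C57BL/6 pools (difference -0.52, SE 0.11, adjusted p = 0.0094). The genes of the activators had overlapping pools. Clock averaged 10.34 ± 0.43 in NOD and 10.58 ± 0.15 in C57BL/6 pools (adjusted p = 0.416) and Arntl averaged 9.72 ± 0.42 in NOD and 9.9 ± 0.36 in C57BL/6 pools (adjusted p = 0.632). Cry2, Nr1d2, Hlf and Bhlhe41 did not pass (adjusted p = 0.156, 0.933, 0.779 and 0.23). The labels give no hour of collection, so strain and time of day cannot be told apart. After 18 h with PBS, Per1 and Cry1 differed by 0.53 and 0.29 (adjusted p = 0.1 and 0.524), and Per2 was higher in NOD, by 0.96 (adjusted p = 0.0352). The strain difference of Per2 changed by -2.06 (adjusted p = 0.00109) between steady state and PBS, that of Cry1 by -1.46 (adjusted p = 0.00581), and that of Per1 by 0.49 (adjusted p = 0.315).

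**Figure D4:**
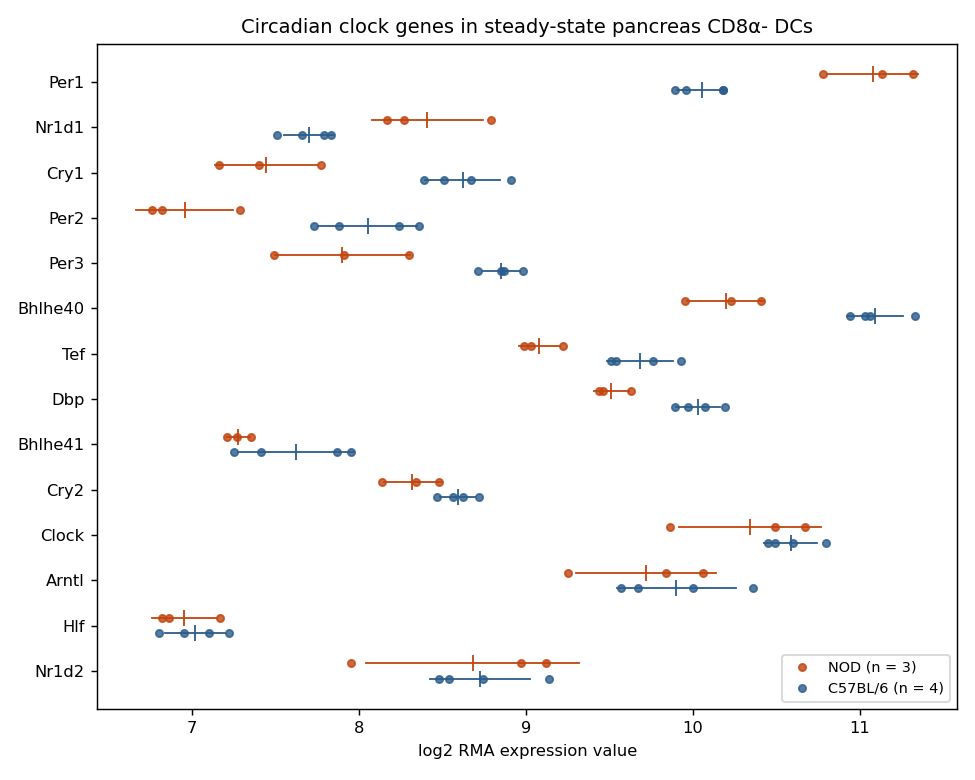
Log2 expression values (horizontal axis) of 14 circadian clock genes, with 1 point per pool, NOD pools drawn above C57BL/6 pools, a tick at the mean and a line of 1 SD to each side. Per1 and Nr1d1 lie higher in NOD, Cry1, Per2, Per3, Bhlhe40, Tef and Dbp lie lower, and the pools of Clock, Arntl, Hlf and Nr1d2 overlap.

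Zinc finger genes named Zfp, many of which encode KRAB repressors of transposable elements, had 24 of 331 higher and 29 lower (16.0%), close to the 15.4% of all genes, and 14 higher and 15 lower without NOD replicate 6. With the replicate block 30 were higher and 47 lower. The extremes were large. Zfp979 and Zfp874a, given above, were the largest rise and one of the largest falls of all named genes. Zfp811 was at 7.75, 7.28 and 7.07 in NOD pools, against 6.23, 5.85, 6.01 and 6.11 in C57BL/6 pools (difference 1.32, SE 0.16, adjusted p = 0.00032) and Zfp980 averaged 7.62 ± 0.29 in NOD and 6.38 ± 0.19 in C57BL/6 pools (difference 1.24, SE 0.15, adjusted p = 0.000347). Zfp788 was at 7.04, 7.19 and 7.15 in NOD pools, against 8.22, 8.34, 8.17 and 8.69 in C57BL/6 pools (difference -1.23, SE 0.13, adjusted p = 0.000152, 1 of 2 probe sets called, mean over them -0.48 with adjusted p = 0.0627). In the RefSeq gene order Zfp979 lies in a cluster of such genes. Of its Zfp neighbours within 30 gene positions 2 were measured, and they differed in opposite directions, Zfp982 by 0.92 (adjusted p = 0.000112) and Zfp991 by -0.55 (adjusted p = 0.0104). Members of this family are alike in sequence, so signal from a related gene cannot be told apart on these arrays.

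C-type lectins, with which DCs bind sugars of microbes and dying cells, had 6 of 38 higher and 6 lower (31.6%), with 8 called without NOD replicate 4 or NOD replicate 6. Cd207, which encodes langerin, was at 7.8, 7.21 and 7.62 in NOD pools, against 6.43, 6.58, 6.25 and 6.48 in C57BL/6 pools (difference 1.11, SE 0.14, adjusted p = 0.000555). Cd209d, a homologue of the pathogen receptor DC-SIGN, was at 11.23, 11.12 and 11.14 in NOD pools, against 10.33, 10.25, 10.13 and 10.41 in C57BL/6 pools (difference 0.88, SE 0.1, adjusted p = 0.000229). Clec4n, which encodes dectin-2, a receptor of fungal mannans, was at 12.03, 11.57 and 11.92 in NOD pools, against 11.1, 11.01, 10.82 and 11.02 in C57BL/6 pools (difference 0.85, SE 0.13, adjusted p = 0.00142). All 3 were higher in every NOD pool, and 17 of the 38 list genes had no overlap between strains, against 24.3% of all genes. Clec7a, which encodes the β-glucan receptor dectin-1, fell by 0.8 (adjusted p = 0.00185). Clec1a, a lectin of endothelial and myeloid cells, averaged 7.59 ± 0.14 in NOD and 8.58 ± 0.15 in C57BL/6 pools (difference -0.99, SE 0.12, adjusted p = 0.00028), and Clec2i averaged 8.76 ± 0.24 in NOD and 9.75 ± 0.15 in C57BL/6 pools (difference -0.98, SE 0.13, adjusted p = 0.000742). Clec16a, which carries the family's name but encodes an intracellular regulator of mitophagy in a region linked to type 1 diabetes, was at 9.1, 9.69 and 9.22 in NOD pools, against 8.18, 8.29, 8.09 and 8.01 in C57BL/6 pools (difference 1.19, SE 0.14, adjusted p = 0.000337). Mrc1, the mannose receptor, was at 14.09, 13.99 and 14.18 in NOD pools, against 14.01, 14.03, 13.97 and 14.01 in C57BL/6 pools with no call (adjusted p = 0.604).

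Of 18 galectins and sialic acid-binding lectins 1 was higher and 3 lower (22.2%, against 15.4% of all genes). Without NOD replicate 6 or C57BL/6 replicate 1 the count was 2. Siglech, a receptor of plasmacytoid DCs and some macrophages, was at 11.69, 12.05 and 11.91 in NOD pools, against 10.2, 10.37, 10.43 and 9.86 in C57BL/6 pools (difference 1.67, SE 0.15, adjusted p = 4.03e-05). The plasmacytoid DC markers Ccr9 and Pacsin1 were higher as well. Ccr9 averaged 8.58 ± 0.077 in NOD and 7.75 ± 0.12 in C57BL/6 pools (adjusted p = 0.000357) and Pacsin1 averaged 8.07 ± 0.076 in NOD and 7.44 ± 0.042 in C57BL/6 pools (adjusted p = 0.00107), while Ly6d, another of the markers, was lower, at 7.96 in NOD and 8.56 in C57BL/6 (adjusted p = 0.0279, or 0.102 without NOD replicate 4), and Tcf4, Bst2 and Klk1 did not pass. The mean level of the 7 markers, Siglech included, was 10.3 to 10.4 in NOD and 9.94 to 10.1 in C57BL/6, and the part of plasmacytoid DCs in the rise of Siglech was not tested. Siglecf, a receptor of eosinophils and alveolar macrophages, averaged 6.95 ± 0.23 in NOD and 8.0 ± 0.28 in C57BL/6 pools (difference -1.05, SE 0.16, adjusted p = 0.00182). Lgals1, which encodes galectin-1, averaged 14.42 ± 0.055 in NOD and 14.23 ± 0.036 in C57BL/6 pools (adjusted p = 0.217).

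The killer cell lectin-like receptors had the largest share of calls of any list, 9 of 18 lower and 3 higher (66.7%, median difference -0.51). Klra genes encode the Ly49 receptors, which bind MHC class I and whose gene number differs between mouse strains. Klra2, which encodes Ly49B, a receptor of myeloid cells, was at 6.95, 7.06 and 6.97 in NOD pools, against 10.15, 10.35, 10.32 and 10.11 in C57BL/6 pools (difference -3.24, SE 0.099, adjusted p = 2.62e-08) and differed by -2.64 with PBS and -2.79 with LPS (adjusted p = 6.36e-07 and 1.17e-05). Klra8, which encodes the activating receptor Ly49H of C57BL/6 NK cells, was at 6.79, 6.61 and 6.77 in NOD pools, against 9.35, 9.26, 9.45 and 9.8 in C57BL/6 pools (difference -2.74, SE 0.13, adjusted p = 4.93e-07). Klra17, which encodes Ly49Q of plasmacytoid DCs and other myeloid cells, went the other way, at 11.44, 11.06 and 11.44 in NOD pools, against 8.44, 8.41, 8.47 and 8.81 in C57BL/6 pools (difference 2.78, SE 0.14, adjusted p = 5.21e-07). Of the 7 plasmacytoid DC markers, given above, 3 were higher and 1 lower, and their part in the rise of Klra17 was not tested. Klrc1, Klrb1a and Klrd1 are receptors of NK cells. Klrc1 averaged 6.22 ± 0.47 in NOD and 8.29 ± 0.11 in C57BL/6 pools (difference -2.06, SE 0.18, adjusted p = 4.4e-05), Klrb1a averaged 7.41 ± 0.17 in NOD and 9.27 ± 0.23 in C57BL/6 pools (difference -1.85, SE 0.14, adjusted p = 1.26e-05) and Klrd1 averaged 9.8 ± 0.25 in NOD and 10.83 ± 0.18 in C57BL/6 pools (difference -1.03, SE 0.14, adjusted p = 0.000816). The NK and innate lymphoid markers were lower in NOD in 9 of 11 cases, among them Ncr1 at 7.12 ± 0.2 in NOD and 8.57 ± 0.057 in C57BL/6 pools and Gzma at 10.11 ± 0.21 in NOD and 11.72 ± 0.13 in C57BL/6 pools (adjusted p = 1.38e-05 and 1.29e-05), and their part in the receptor differences was not tested. Ly49 genes are close copies of each other, so a probe set may also read a relative.

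Receptors with paired activating and inhibitory forms and SLAM receptors were lower in NOD in 11 of 38 cases and higher in 3 (36.8%). Slamf7 was at 9.6, 9.58 and 9.56 in NOD pools, against 10.7, 10.85, 10.67 and 10.9 in C57BL/6 pools (difference -1.19, SE 0.096, adjusted p = 2.07e-05) and Slamf8, which limits the phagocyte oxidase, averaged 9.25 ± 0.075 in NOD and 10.29 ± 0.13 in C57BL/6 pools (difference -1.04, SE 0.1, adjusted p = 8.59e-05). The pair Pilra, inhibitory, and Pilrb1, activating, moved together. Pilra was at 11.26, 11.38 and 11.41 in NOD pools, against 12.25, 12.25, 12.41 and 12.29 in C57BL/6 pools (difference -0.95, SE 0.094, adjusted p = 8.51e-05) and Pilrb1 averaged 11.21 ± 0.14 in NOD and 12.19 ± 0.14 in C57BL/6 pools (difference -0.97, SE 0.11, adjusted p = 0.000256). Havcr1, which encodes TIM-1, a receptor of phosphatidylserine, was at 7.97, 8.17 and 8.14 in NOD pools, against 6.93, 6.91, 6.95 and 6.82 in C57BL/6 pools (difference 1.19, SE 0.094, adjusted p = 1.84e-05). Tyrobp, the adaptor DAP12 through which many of these receptors signal, averaged 13.98 ± 0.047 in NOD and 14.04 ± 0.057 in C57BL/6 pools (adjusted p = 0.711).

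Scavenger and phagocytic receptors were split, with 5 of 30 higher and 5 lower (33.3%). Cd5l, Marco and Adgre4, all expressed by macrophages, were lower in NOD, with NOD replicate 4 the lowest pool in each. Cd5l, which encodes a secreted scavenger protein of resident macrophages, was at 10.38, 9.09 and 10.65 in NOD pools, against 12.28, 11.45, 12.23 and 12.08 in C57BL/6 pools (difference -1.97, SE 0.33, adjusted p = 0.00314). Marco, a receptor of bacteria and particles, was at 10.25, 9.39 and 10.41 in NOD pools, against 11.64, 11.1, 11.58 and 11.38 in C57BL/6 pools (difference -1.41, SE 0.22, adjusted p = 0.00228), and Adgre4 averaged 10.79 ± 0.39 in NOD and 11.85 ± 0.14 in C57BL/6 pools (difference -1.07, SE 0.16, adjusted p = 0.00189). Axl, which clears apoptotic cells and dampens activation, was at 10.93, 11.27 and 11.51 in NOD pools, against 12.17, 12.17, 12.2 and 12.05 in C57BL/6 pools (difference -0.91, SE 0.13, adjusted p = 0.00123, 1 of 2 probe sets called, mean over them -0.33). Cd93, a receptor linked to the uptake of dying cells, was higher, at 13.21, 13.27 and 13.31 in NOD pools, against 12.26, 12.3, 12.25 and 11.95 in C57BL/6 pools (difference 1.07, SE 0.11, adjusted p = 0.000108, 4 of 5 probe sets called, mean over them 0.67). Of 10 macrophage and monocyte markers 0 were higher and 1 was lower, with a mean level of 13.3 to 13.4 in NOD and 13.3 to 13.4 in C57BL/6; none was called without NOD replicate 6, C57BL/6 replicate 4 or C57BL/6 replicate 5, and 1 was higher and 2 lower with the replicate block. Csf1r, the receptor of macrophage colony-stimulating factor, averaged 14.74 ± 0.098 in NOD and 14.81 ± 0.074 in C57BL/6 pools (adjusted p = 0.726).

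Of 117 G protein-coupled receptors outside the chemokine family 20 were lower and 11 higher (26.5%), with 15 called without NOD replicate 6 and 20 without C57BL/6 replicate 6. Sensors of protons and of fatty acids were among the lower ones. Gpr65, a proton sensor that dampens inflammation, was at 10.84, 10.09 and 10.95 in NOD pools, against 11.49, 11.66, 11.45 and 11.75 in C57BL/6 pools (difference -0.96, SE 0.19, adjusted p = 0.00748) and differed in culture by -0.83 with PBS and -1.07 with LPS (adjusted p = 0.0241 and 0.0158). Gpr84 and Ffar4, which answer to medium- and long-chain fatty acids, fell by 0.68 and 0.74 (adjusted p = 0.00711 and 0.014). Gprc5b averaged 9.8 ± 0.15 in NOD and 8.81 ± 0.28 in C57BL/6 pools (difference 0.98, SE 0.15, adjusted p = 0.0018). Htr1b, given above, is a G protein-coupled receptor outside the list. In culture it differed by 0.24 with PBS and 1.5 with LPS (adjusted p = 0.447 and 0.00182), and the steady-state difference exceeded that with PBS by 3.25 (adjusted p = 2.65e-08).

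Ion channels held 7 of 138 higher and 11 lower (13.0%), below the share of all genes, and 12 calls without C57BL/6 replicate 1. With the replicate block 14 were higher and 12 lower. Kcnip3, which encodes a calcium-binding partner of potassium channels that also represses transcription, was at 5.6, 5.62 and 5.83 in NOD pools, against 8.26, 8.1, 8.15 and 8.45 in C57BL/6 pools (difference -2.56, SE 0.11, adjusted p = 2.77e-07, 1 of 2 probe sets called, mean over them -1.4), with the NOD pools under the lower quartiles. P2rx7, the ATP-gated channel that triggers the inflammasome, was at 11.6, 11.32 and 11.59 in NOD pools, against 12.66, 12.47, 12.44 and 12.38 in C57BL/6 pools (difference -0.98, SE 0.11, adjusted p = 0.00023, 2 of 3 probe sets called, mean over them -0.44). Clcn6, a chloride transporter of late endosomes, was at 11.29, 11.4 and 11.3 in NOD pools, against 10.23, 10.32, 10.28 and 10.46 in C57BL/6 pools (difference 1.01, SE 0.096, adjusted p = 6.8e-05) and differed by 0.94 with PBS and 0.86 with LPS (adjusted p = 0.00079 and 0.00325), so it was higher in NOD in all 3 conditions. Of 42 tetraspanins and Ms4a proteins 5 were higher and 5 lower (23.8%), among them the tetraspanin Cd9 at 9.68 ± 0.27 in NOD and 10.43 ± 0.14 in C57BL/6 pools (difference -0.75, SE 0.13, adjusted p = 0.00465) and Ms4a6d at 13.04 ± 0.15 in NOD and 12.39 ± 0.18 in C57BL/6 pools (difference 0.65, SE 0.12, adjusted p = 0.00633, 2 of 3 probe sets called, mean over them 0.58).

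Of 73 guidance and Notch genes 8 were higher and 4 lower (16.4%), 7 without NOD replicate 6. Efnb2, which encodes ephrin-B2, a ligand of EPHB receptors, was at 7.33, 6.77 and 7.39 in NOD pools, against 8.99, 8.25, 8.69 and 8.77 in C57BL/6 pools (difference -1.51, SE 0.19, adjusted p = 0.000475, 3 of 4 probe sets called, mean over them -1.1). Plxnd1, a semaphorin receptor that guides cell movement, was at 11.68, 11.58 and 11.5 in NOD pools, against 10.45, 10.66, 10.8 and 10.45 in C57BL/6 pools (difference 1.0, SE 0.11, adjusted p = 0.000256), and Nrp2, a coreceptor of semaphorins, was higher by all 4 of its probe sets, at 11.72 ± 0.064 in NOD and 11.17 ± 0.073 in C57BL/6 pools (difference 0.55, SE 0.092, adjusted p = 0.00298). Sema6a, a transmembrane semaphorin, was at 8.65, 9.02 and 8.6 in NOD pools, against 7.82, 7.72, 7.72 and 7.64 in C57BL/6 pools (difference 1.03, SE 0.12, adjusted p = 0.000244). Its difference had the opposite sign in culture, -0.83 with PBS and -1.03 with LPS (adjusted p = 0.00265 and 0.00174), and the change was 1.86 (adjusted p = 5.2e-06). Notch2, the receptor that CD8α- DCs need in spleen and gut, averaged 13.73 ± 0.021 in NOD and 13.72 ± 0.062 in C57BL/6 pools (adjusted p = 0.945).

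Matrix genes were called at 18.4%, near the background of 15.4%. Of 94 proteases, inhibitors and crosslinkers 9 were higher and 10 lower (20.2%), 12 without NOD replicate 6. Mmp9, a gelatinase that cuts the collagen of basement membranes, was at 10.1, 10.25 and 9.98 in NOD pools, against 12.41, 11.89, 11.78 and 11.62 in C57BL/6 pools (difference -1.82, SE 0.17, adjusted p = 5.82e-05). Mmp13, a collagenase, was at 7.78, 6.96 and 7.33 in NOD pools, against 8.45, 8.72, 8.01 and 8.89 in C57BL/6 pools (difference -1.16, SE 0.22, adjusted p = 0.00741), and Mmp19, a further metalloprotease, was at 10.33, 10.34 and 10.08 in NOD pools, against 9.31, 9.09, 9.51 and 9.44 in C57BL/6 pools (difference 0.91, SE 0.12, adjusted p = 0.000787). Mmp9 and Mmp13 were thus lower and Mmp19 higher in every NOD pool. Of the 94 list genes 29 had no overlap between strains, against 24.3% of all genes. With PBS, Mmp13 was higher in NOD, by 0.75 (adjusted p = 0.0476), and the change in its strain difference was -1.91 (adjusted p = 0.00189). Cst3, which encodes cystatin C, an inhibitor of the cathepsins that process antigen, averaged 14.54 ± 0.04 in NOD and 14.35 ± 0.08 in C57BL/6 pools (adjusted p = 0.228).

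Of 42 collagens 4 were higher and 4 lower (19.0%, against 15.4% of all genes). Without NOD replicate 1 the count was 12, and without NOD replicate 4 it was 5. With the replicate block 4 were higher and 8 lower. Col14a1, a collagen on the surface of fibrils, was at 8.84, 7.2 and 8.7 in NOD pools, against 10.25, 10.05, 9.87 and 10.61 in C57BL/6 pools, with NOD replicate 4 lowest (difference -1.95, SE 0.34, adjusted p = 0.00397, 3 of 3 probe sets called, mean over them -1.27). Col3a1, a fibrillar collagen of fibroblasts, was at 10.24, 9.3 and 10.13 in NOD pools, against 10.8, 10.5, 11.16 and 11.27 in C57BL/6 pools (difference -1.04, SE 0.24, adjusted p = 0.0183, 1 of 2 probe sets called, mean over them -0.74 with adjusted p = 0.0679). Dcn, the fibroblast proteoglycan decorin, averaged 9.5 ± 0.14 in NOD and 10.21 ± 0.26 in C57BL/6 pools (difference -0.71, SE 0.14, adjusted p = 0.00953, 1 of 2 probe sets called, mean over them -0.41). Col3a1 and Dcn are themselves fibroblast markers, and 3 of 9 such markers were lower in NOD (mean level 7.86 to 8.16 in NOD and 8.14 to 8.49 in C57BL/6); their part in the differences of collagens was not tested. Col20a1 was higher by all 4 of its probe sets, at 9.13 ± 0.078 in NOD and 8.32 ± 0.056 in C57BL/6 pools (difference 0.81, SE 0.091, adjusted p = 0.000216). Of 34 proteoglycan and hyaluronan genes 2 were higher and 4 lower (17.6%), with 4 called without NOD replicate 6. Hmmr, a hyaluronan receptor that also serves in mitosis, was at 7.29, 6.5 and 7.1 in NOD pools, against 8.86, 8.6, 8.42 and 9.03 in C57BL/6 pools (difference -1.77, SE 0.2, adjusted p = 0.000203, 4 of 5 probe sets called, mean over them -0.78), and Hyal2, which cuts hyaluronan, averaged 10.32 ± 0.19 in NOD and 9.53 ± 0.22 in C57BL/6 pools (difference 0.79, SE 0.14, adjusted p = 0.00423). Of 53 matrix glycoproteins 4 were higher and 4 lower (15.1%, like the 15.4% of all genes). The calls were 5 without C57BL/6 replicate 1 and 4 without C57BL/6 replicate 5. With the replicate block 6 were higher and 8 lower. Postn, which encodes periostin, a protein that links collagen to integrins, was at 8.44, 8.06 and 8.59 in NOD pools, against 7.31, 7.04, 7.27 and 7.85 in C57BL/6 pools (difference 1.0, SE 0.19, adjusted p = 0.00613) and differed by 4.19 with PBS and 2.92 with LPS (adjusted p = 6.31e-09 and 0.000117), more than at steady state (change -3.2, adjusted p = 2.21e-07). Fn1, fibronectin, averaged 13.96 ± 0.14 in NOD and 14.04 ± 0.1 in C57BL/6 pools (adjusted p = 0.704).

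Several genes known for sequence or structural differences between NOD and C57BL/6 were measured. Of 13 such genes 1 was higher (Nnt) and 2 were lower (Klra8 and H2-K1), 23.1% against 15.4% of all genes. H2-K1, of which NOD carries the d and C57BL/6 the b allele, averaged 13.43 ± 0.061 in NOD and 13.82 ± 0.061 in C57BL/6 pools (difference -0.39, SE 0.09, adjusted p = 0.0201, 3 of 4 probe sets called, mean over them -0.34). H2-Ea, silent in both strains through a promoter deletion, averaged 7.17 ± 0.16 in NOD and 7.07 ± 0.024 in C57BL/6 pools (adjusted p = 0.536). H2-Ab1, of which NOD carries the diabetes-linked g7 allele, averaged 14.25 ± 0.017 in NOD and 14.37 ± 0.041 in C57BL/6 pools (adjusted p = 0.413). Hc, the complement C5 gene that NOD carries as a null allele, averaged 6.36 ± 0.16 in NOD and 6.21 ± 0.053 in C57BL/6 pools (adjusted p = 0.415). Sirpa, a polymorphic receptor that binds CD47, averaged 13.32 ± 0.11 in NOD and 13.37 ± 0.056 in C57BL/6 pools (adjusted p = 0.766). Il2, Ctla4 and Slc11a1, which lie in diabetes susceptibility regions, did not pass (adjusted p = 0.434, 0.991 and 0.198).

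Probe sets of a gene that read the strains differently were counted next, since each reads another stretch of the transcripts. Of 9010 genes with at least 2 probe sets, 2703 had a called one, and for 459 of these all were called in one direction. For 90 genes probe sets were called in opposite directions, and for 241 one was called at 2-fold or more while another was not called. Fcgr1, which encodes the IgG receptor CD64 and of which NOD carries an allele with a truncated tail, is an example. Its brighter probe set was at 12.73, 12.57 and 12.66 in NOD pools, against 12.83, 12.77, 12.66 and 12.87 in C57BL/6 pools (adjusted p = 0.42), while the other was at 7.26, 7.38 and 7.34 in NOD and at 10.17, 10.04, 10.11 and 10.27 in C57BL/6 (difference -2.82, SE 0.0959, adjusted p = 4.75e-08). One probe set thus showed no strain difference that passed and the other a clear one.

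The 10 genes with the largest range between probe sets repeated this. For Uqcr10, a subunit of mitochondrial complex III, the brightest probe set averaged 12.49 ± 0.08 in NOD and 12.24 ± 0.044 in C57BL/6 (adjusted p = 0.112), while another averaged 6.26 ± 0.2 in NOD and 9.86 ± 0.094 in C57BL/6 (difference -3.59, adjusted p = 3.13e-08). That second difference was -3.62 in PBS culture and -3.07 in LPS culture. For Lcp2, the signalling adaptor SLP-76, the differences were -0.0492 and -3.81 (adjusted p = 0.8 and 2.1e-07), for Rps9, a ribosomal protein, 0.17, -0.55 and -3.18 (adjusted p = 0.371, 0.0162 and 2.74e-05), and for Prune2 they ran from 0.33 to -4.2 (adjusted p = 0.172 and 2.1e-07). Hfe, a regulator of iron uptake, was called higher by its brightest probe set, by 0.42, and lower by the other, with a difference of -2.8 (adjusted p = 0.0206 and 5.87e-07); with the spread of all 22 arrays the first had an adjusted p of 0.27. Tspan8, a tetraspanin, was higher by 0.42 by its brightest probe set and by 3.49 by another (adjusted p = 0.0188 and 1.42e-06), which differed by 0.0615 in PBS culture. Wdr20, Pisd-ps3, Prim2 and 2610035D17Rik complete the set, each with 1 probe set lower in NOD by more than 3. In these genes the size of the strain difference depended on the probe set that was read. Whether the strains differ in sequence under these probe sets was not analysed here.

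**Figure D5:**
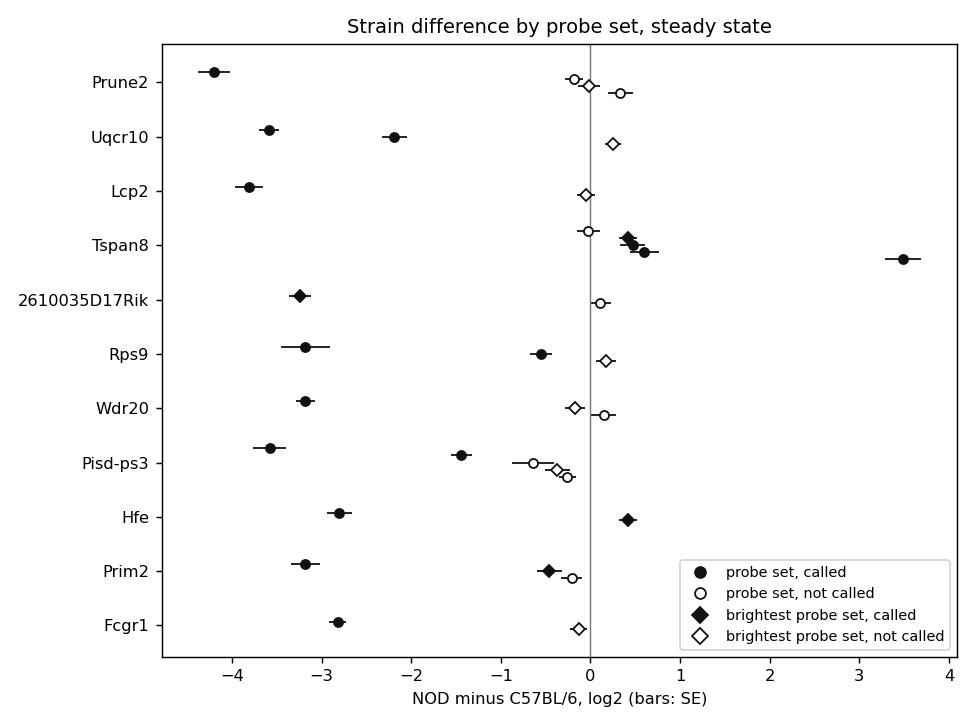
Strain difference (NOD minus C57BL/6, log2, horizontal axis) with its SE for each probe set of the 10 genes with the largest range among probe sets and of Fcgr1. Filled symbols were called, open ones were not, and diamonds mark the brightest probe set of the gene. For Lcp2, Uqcr10, Prune2 and Fcgr1 the brightest probe set lies near 0 and another more than 2 below it.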

How the data were processed

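The deposited values are log2 expression values that the authors made with RMA (background correction, quantile normalization and summary of probes per probe set) in BRB-ArrayTools, whose version the sources used here do not give, from Affymetrix mouse genome arrays, which measure RNA by hybridisation. Quantile normalization brings the arrays to like distributions, so a shift of most genes one way would be lost, and 3 and 4 pools limit the precision. The 64 AFFX control probe sets were left out of 45101, and 45037 were tested between NOD (n = 3) and C57BL/6 (n = 4) with limma 3.58.1 in R 4.3.3, two-sided, with Benjamini-Hochberg adjustment over all of them and a threshold of 0.1. Platform annotation named 34945 probe sets with 1 gene, 932 with several and 9160 with none here, and 99.4% of the first were matched to RefSeq by Entrez ID. A gene took its brightest single-gene probe set over the 7 arrays. The strain differences in culture, and the change in the strain difference, were fitted in the same way. The paper's multivariate permutation procedure was not rebuilt.

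Named were the 12 largest called rises and the 12 largest falls without overlap, up to 6 called members and the brightest member of each list, the clock genes, and the 10 genes whose probe sets differed most; other genes named were chosen after their values were seen. Genes that the study tabulated for steady-state DCs were left out by symbol; genes of its table of LPS-stimulated DCs, such as Itgax, were not. The members and lists were chosen with earlier results of these data known. Deviations from the group means of pools with the same replicate number (1, 4 and 6) correlated at 0.109, 0.433 and 0.13 with means over all 7 arrays, and at -0.0118, 0.516 and 0.126 with means over the 6 arrays that share numbers, so the pairing is uncertain. The fit reported is unpaired. A fit with the replicate number as a block was an alternative, on the 6 arrays that share numbers and so without C57BL/6 replicate 5. It is given where it ends a call and for some of the lists whose counts it moved. Other alternatives were a threshold of 0.05, the probe sets under the median level left out, the spread over all 22 arrays, arrays centred on their medians, an intensity trend with robust spread, the mean over the probe sets of a gene and each array left out. The fits were tested on simulated data.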

Additional observations from a re-analysis of the deposited data

Results flagged for a closer look

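In a group of 4 C57BL/6 pools, 1 pool stood far from the other 3 for 15 of 244 genes checked, where chance gives about 1 in 20. C57BL/6 replicate 1 was the distant pool for Shmt1 (10.24), Zfp36 (13.58) and Cd5 (7.43). C57BL/6 replicate 4 was the distant pool for Alox5ap (13.62), Zfp619 (6.91) and Notch3 (6.68). C57BL/6 replicate 5 was the distant pool for Lgals1 (14.18), Klrc1 (8.46) and Gpr33 (6.39). C57BL/6 replicate 6 was the distant pool for Apoe (13.68), Klra17 (8.81), Tyrobp (13.95), Cd93 (11.95), Srgn (13.27) and Cst3 (14.24). The values are log2 expression values, and NOD, with 3 pools, was not checked.

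For 26 of 38 genes tested, the 24 largest changes and the 14 clock genes, the strain difference at steady state differed from that after PBS culture in limma's test of the difference itself. Over all genes this share was 7.95%. The 38 genes were chosen by their steady-state values, which the test uses again. Their count and the direction of the change therefore cannot be set against that share. The values in brackets are the steady-state minus the PBS difference on the log2 scale. Among genes higher in NOD at steady state it was positive for Fbp1 (4.33), BC018473 (1.19), Htr1b (3.25), AI506816 (1.2), Mxra8 (1.8), Tafa5 (2.73), Atp6v0e2 (1.82), Slc16a14 (2.68) and Tmem98 (2.48), so the rise was larger in uncultured cells, and it was negative for Zfp979 (-0.93), whose difference was larger with PBS. Among the largest falls it was negative for Ifi213 (-0.57), H60c (-2.88), Zfp874a (-1.78), Cd300ld (-1.78), 2610035D17Rik (-2.41), Klra2 (-0.59), Eps8l1 (-1.44), Rab6b (-2.74) and A630001G21Rik (-1.64). Among clock genes it was negative for Per2 (-2.06), Per3 (-0.91), Cry1 (-1.46), Cry2 (-0.7), Tef (-0.82), Bhlhe40 (-0.62) and Bhlhe41 (-0.72), while the test did not pass for Per1, Nr1d1, Dbp, Clock, Arntl, Nr1d2 and Hlf.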

How the results depend on the processing

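With each array left out in turn, between 4390 and 8915 probe sets were called, against 6769 with all 7, of which between 1891 and 4212 were higher in NOD, against 3193; the lowest counts came without NOD replicate 6. The number of called transcription factors ran from 63 to 127 and that of called lectins from 10 to 17. Of the probe sets higher in NOD, 1966 were called at an adjusted p under 0.05 and 1941 with probe sets under the median level left out. Calls in both directions were 4599 at 0.05, 4651 with probe sets under the median level left out and 5024 with the spread of all 22 arrays. With the arrays centred they were 6620, with an intensity trend 6825 and with the replicate block 9470. The block fit left out C57BL/6 replicate 5, whose number occurs in 1 strain only, and the unpaired fit without that array called 5421. Of 198 called named genes, 163 stayed called whichever array was left out, 19 lost the call with the spread of all 22 arrays and 25 at 0.05. The block, which pairs equal replicate numbers, ended 4 calls, those of Idh2, Impdh1, Alox12 and Chga. The mean over the probe sets of a gene ended 11 of the 198 calls and reversed 1, Ighm, to 0.38 (adjusted p = 0.138), centring ended 3 and the intensity trend 7. With 3 and 4 pools and values under 6.03 not tested against background, small differences and folds of dim genes are the least certain.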
